A study of Mus musculus with 18 samples.

Results

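The 40 genes described here make ribosomes or build the nucleolus, the part of the nucleus where ribosomes are assembled. They were chosen by name, with earlier results of these data known. All 40 matched a mouse Ensembl identifier among the 50689 features of the count table. The measurements are RNA sequencing counts of unique molecular identifiers (UMIs), each of which stands for one captured transcript molecule, in 18 libraries of cultured satellite cells, which repair skeletal muscle as its resident stem cells. The cells were grown on matrigel from tibialis anterior muscle of C57BL6 mice, and the labels state no animal age.

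The control group of 9 libraries had the genotype Hoxa10f/f, in which both copies of the homeobox gene Hoxa10 carry Cre target sites. The scKO group of 9 libraries had the genotype Pax7-CreERT2/+;Hoxa10f/f, so both groups share the floxed alleles and only scKO has Cre, in a form that tamoxifen activates and that is driven from Pax7, a gene of satellite cells. 4-hydroxy tamoxifen was given to scKO cells at 1 µM for 2 days, and no treatment of control cells is stated, so the genotype, Cre and the drug cannot be told apart as sources of a difference. Whether the libraries came from separate animals or dishes is not stated either, and p-values measure only the spread between these libraries.

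A ribosome starts as a long precursor RNA that RNA polymerase I transcribes in the nucleolus. Small nucleolar ribonucleoproteins (snoRNPs) guide chemical changes to that RNA, box C/D particles by adding methyl groups and box H/ACA particles by turning uridine into pseudouridine, while large sets of assembly factors fold and cut it into the small and the large ribosomal subunit. The transcription factor Myc activates many of these genes, and growing cells such as proliferating myoblasts express them strongly.

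Total counts split the libraries into 5 deep ones (control 1 and 2, scKO 6, 7 and 9), with 4346150 to 5986128 counts, and 13 shallow ones with 420197 to 968559 counts. The split was set at 2000000 counts, and the contrast of scKO with control was made within each depth class, and over both with the class as a term. Levels are given as CPM, the counts scaled to the library total, with TMM scaling within the class. Hoxa10 was lower in scKO in both classes, at 1.73 to 4.39 CPM against 13.6 to 59.3 CPM in shallow and 9.11 to 13.6 CPM against 50.4 to 53.4 CPM in deep libraries (log2 fold change over both classes -2.54, SE 0.25, edgeR adjusted p = 3.01e-06). Each library held transcripts of Pax7, Myod1 and Des, which mark myogenic cells, and the summed myogenic markers lay at 3841 to 11105 CPM against 1010 to 3651 CPM for smooth muscle and pericyte markers and 1.04 to 19.0 CPM for leukocyte markers, with other lists given at the end. Control 7, 8 and 9 and scKO 1, all shallow, lay apart from the remaining shallow libraries on a principal component, and shallow results are also given without them.

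In the deep libraries, ribosome biogenesis genes were lower together in scKO. Of the 40 members, 21 fell and 0 rose (edgeR quasi-likelihood test, Benjamini-Hochberg adjusted p under 0.05 over 13136 genes), while 7.03% of all genes tested fell and 7.31% rose. Negative log2 fold changes were found for 38 of the 40 members, against 50.2% of all genes tested. The median of the members was -0.36 and that of all genes -0.0017. Because the list was chosen with earlier results known, these shares describe it and are not a test of it. In 35 members all 3 deep scKO libraries lay below both deep controls, an arrangement seen in 22.4% of the genes tested, and in 1 member, Noc3l, all 3 lay above both (23.1% of genes).

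Members are well counted in this class, with a median of 419 counts per deep library against 162 for all genes tested. Among the 7943 genes with a mean of at least 100 counts, a set that holds 38 members and all 21 that fell, 9.25% of genes fell. DESeq2 called 12 members lower (4.86% of genes) and limma-voom 18 (6.76% of genes). With 1 deep library left out, edgeR called 8 members lower without scKO 7 (3.69% of all genes tested), 12 without scKO 6 (5.86%), 13 without control 1 (5%), 14 without scKO 9 (5.2%) and 17 without control 2 (7.38%). Noc3l was also called higher without control 2. Lower calls over all genes were also fewest without scKO 7.

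In the shallow libraries no member was called, of 36 that passed the count filter, where 1 gene of 6906 (0.0145%) fell and 2 rose (0.029%), 0.0434% in all. Why so few genes were called there was not tested. At an unadjusted p under 0.05 edgeR found 2 members lower (3.13% of genes) and 1 higher (3.03% of genes), and DESeq2 and limma-voom called 0 members. Log2 fold changes were negative for 28 of the 36, against 54.2% of all genes tested, with a median of -0.17. For all 40 members the range of the scKO libraries overlapped that of the controls. Non-overlap was rare here, with 0.101% of genes wholly below and 0.203% wholly above.

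Over both classes with the depth class in the model, edgeR called 0 of 37 members, while 27 of 7662 genes fell (0.352%) and 25 rose (0.326%). At an unadjusted p under 0.05, 10 members were lower (5.99% of genes) and 1 was higher (5.89% of genes). The log2 fold change was negative in 32 of 37 members, against 51.6% of all genes, and the median was -0.24. This model uses the same libraries as both class-wise fits and is not separate evidence. DESeq2 called 5 members lower here (Wdr12, Nop58, Nop56, Nop2 and Npm1; 2.94% of genes) and limma-voom 0 (0.679% of genes). Without the 4 libraries that lay apart edgeR called 8 members lower: Nhp2, Nop56, Dkc1, Ncl, Wdr12, Npm1, Nop58 and Wdr43, with log2 fold changes from -0.54 to -0.29 (of 8464 genes 4.09% fell and 3.2% rose). These 4 libraries were picked on a principal component of the same data, so the 8 calls are not separate evidence. For Nhp2, Nop56, Ncl, Wdr12 and Npm1, though not for Dkc1, Nop58 and Wdr43, scKO 1 was the highest shallow scKO library. Leaving it out lowers their scKO level.

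**Figure D1:**
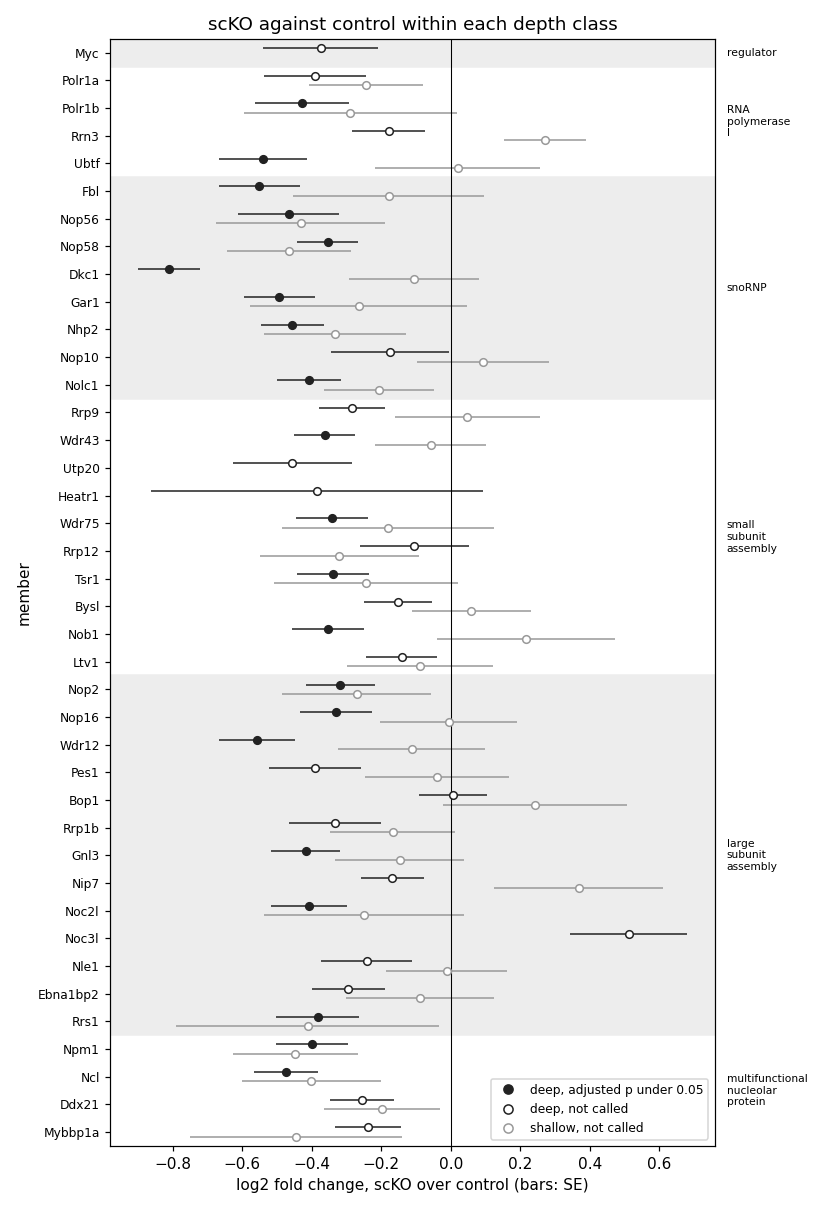
Log2 fold change of scKO over control (horizontal axis) for each of the 40 members, grouped by step in shaded bands, in deep libraries (black, filled where the edgeR adjusted p is under 0.05) and shallow libraries (grey), with bars for 1 SE on either side. Black points lie left of 0 for 38 members, 21 of them filled, and grey points scatter more widely around smaller values.

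Whether the contrast itself differed between the classes was tested as an interaction. 0 of 37 members passed, as did 0 of 7662 genes (0%). The interaction was negative, meaning a lower ratio of scKO to control in deep than in shallow libraries, in 31 of 37 members against 49.3% of all genes, with a median of -0.19. At an unadjusted p under 0.05 it was found for Dkc1 (-0.69, SE 0.29, edgeR adjusted p = 0.753) and Rrn3 (-0.44, SE 0.20, edgeR adjusted p = 0.780), 2 members where 6.17% of all genes reached that level in either direction. SE here and throughout is the absolute log2 fold change divided by the square root of the F statistic of the quasi-likelihood test.

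Myc, the regulator among the members, had 0 to 7 counts in shallow controls and 0 to 3 in shallow scKO, too few to be tested there. In the deep libraries its level was 38.1 and 26.9 CPM in control and 24.7, 26.2 and 23.4 CPM in scKO. All 3 scKO values lay below both controls, though 26.2 and 26.9 CPM nearly touch, and the difference was not called (log2 fold change -0.37, SE 0.17, edgeR adjusted p = 0.148). Of 10 tested genes of the Myc and Max network, which pair with or oppose Myc, only Max fell in deep libraries (log2 fold change -0.32, SE 0.09, edgeR adjusted p = 0.0261). This is 1 of 10, near the 7.03% of all genes that fell. The list had a median of 0.01, with 6 of the 10 positive.

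Myc binds DNA with Max at the E-box, the sequence CACGTG, which reads the same on both strands. In RefSeq promoter windows of GRCm38.p6, from 250 bases before to 50 bases after the start of transcription, 9 of the 34 members with a window (26.5%) held a CACGTG, against 2187 of 27025 genes (8.09%). Counted by window, it was 20.9% of 43 member windows and 7.15% of 32851 windows in all. The 10 sites lay in Ltv1, Mybbp1a, Nle1, Nop2, Pes1, Rrn3 (2 sites), Tsr1, Utp20 and Wdr43, and 7 of them lay downstream of the start. A CACGTG was present in 3 of the 18 members with a window that fell in deep libraries (Nop2, Tsr1 and Wdr43) and in 6 of the 16 that were not called. A match is a description of the letters and not of binding. Myc, Fbl, Rrp12, Bop1, Rrs1 and Npm1 had no window in the table. The 30 bases around the site are given for those 3 members and for Rrn3, the only member with a pair of sites and one that was not called lower, with the E-box in capitals, 5′ to 3′ on the strand of the gene.
Nop2, chr6:125131811-125131840, plus strand: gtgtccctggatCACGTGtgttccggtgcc
Tsr1, chr11:74898092-74898121, plus strand: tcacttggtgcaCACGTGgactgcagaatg
Wdr43, chr17:71616220-71616249, plus strand: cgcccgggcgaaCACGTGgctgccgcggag
Rrn3 far site, chr16:13780472-13780501, plus strand: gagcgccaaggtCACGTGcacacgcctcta
Rrn3 near site, chr16:13780639-13780668, plus strand: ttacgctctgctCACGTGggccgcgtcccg
The Nop2 site starts 60 bases before the start of transcription, and the Rrn3 sites start 215 and 48 bases before it. In Tsr1 and Wdr43 the E-box starts at positions 25 and 18, counted with the first transcribed base as 1. The whole upstream part of the Nop2 window, 250 bases at chr6:125131633-125131882 on the plus strand, is shown because this promoter combines an upstream E-box with a member that fell, and the E-box is again in capitals.
Nop2 upstream: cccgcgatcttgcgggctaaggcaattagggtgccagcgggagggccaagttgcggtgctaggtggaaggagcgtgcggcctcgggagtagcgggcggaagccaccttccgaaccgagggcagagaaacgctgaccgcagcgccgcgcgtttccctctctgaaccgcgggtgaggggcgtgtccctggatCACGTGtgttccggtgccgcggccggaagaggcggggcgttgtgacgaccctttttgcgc

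The 4 members that transcribe ribosomal DNA had all 3 deep scKO libraries below both deep controls (22.4% of all genes tested). Of the 4, Ubtf and Polr1b fell, where 7.03% of all genes did. Ubtf, which binds ribosomal DNA and keeps it open, was at 71.8 and 64.0 CPM in deep controls and 50.6, 49.0 and 40.1 CPM in deep scKO (log2 fold change -0.54, SE 0.13, edgeR adjusted p = 0.0124). In shallow libraries its groups spread over much the same range, 21.8 to 42.5 CPM (median 35.8) in control and 24.6 to 51.0 CPM (median 27.2) in scKO. Polr1b, a catalytic subunit of RNA polymerase I, was at 43.2 and 45.9 CPM against 31.0, 37.4 and 30.9 CPM (log2 fold change -0.43, SE 0.13, edgeR adjusted p = 0.0490), and this call was lost whenever any deep library was left out.

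Polr1a, the largest subunit of the enzyme, was at 85.1 and 80.6 CPM in deep controls and 49.1, 73.0 and 67.0 CPM in deep scKO, not called (log2 fold change -0.39, SE 0.15, edgeR adjusted p = 0.0979). In shallow libraries it was at 46.5 to 89.8 CPM (median 79.0) in control and 56.8 to 69.7 CPM (median 65.3) in scKO. Control 6, at 46.5 CPM, was the only shallow control below the scKO libraries; the other 6 lay above them all.

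Rrn3, which recruits the polymerase to its promoter, did not keep one direction between the classes. Its deep values were 496 and 452 CPM in control and 415, 415 and 426 CPM in scKO (log2 fold change -0.18, SE 0.10, edgeR adjusted p = 0.280), while its shallow values ran from 737 to 869 CPM (median 790) in control and from 866 to 1060 CPM (median 972) in scKO (log2 fold change 0.27, SE 0.12, edgeR adjusted p = 0.800). Deep scKO libraries thus lay wholly below the controls, and shallow ones above them except that scKO 1, at 866 CPM, fell just under the highest control. The difference between the classes was the interaction given above and was not called. Rrn3 reached 2778 counts in a deep library, 67.8% of the highest count in the table, a maximum that all 5 deep libraries and scKO 3 reach. It was the only member whose share was lower in both deep controls than in every shallow control (ratio 0.609). With counts corrected for UMI collisions Rrn3 was still not called in deep libraries, and the part of that maximum in its values was not tested further. With all counts corrected for UMI collisions, 22 members were lower in deep libraries (7.87% of genes) and the median was -0.40.

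The snoRNP proteins, as grouped here, had the most calls for their number. In deep libraries 7 of 8 members fell, where 7.03% of all genes did, with a median log2 fold change of -0.46. The steps were set with earlier results known. Rrp9, placed with the small subunit, and Snu13, in another list, are not in this group and were not called. Over both classes 7 of 8 were negative (51.6% of all genes), with a median of -0.37. An unadjusted p under 0.05 was found for 6 (5.99% of genes), none a call. Dkc1, dyskerin, the pseudouridine synthase of box H/ACA particles and also a part of telomerase, fell most of all members. It was at 196 and 214 CPM in deep controls and 122, 118 and 111 CPM in deep scKO, so scKO held 57.1% of the control level and the groups were far apart (log2 fold change -0.81, SE 0.09, edgeR adjusted p = 0.000217). Its gene, ENSMUSG00000031403, lies on chromosome X at 75095854 to 75109777 in GRCm38. In shallow libraries the groups overlapped, with Dkc1 at 72.5 to 159 CPM (median 86.3) in control and 68.8 to 106 CPM (median 97.1) in scKO (log2 fold change -0.11, SE 0.19, edgeR adjusted p = 0.926).

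Its partners in the box H/ACA particle were not all called, and differences between them were not tested. Gar1 was at 126 and 126 CPM in deep controls and 81.4, 88.3 and 98.2 CPM in deep scKO and fell (log2 fold change -0.49, SE 0.10, edgeR adjusted p = 0.00647). Nhp2 fell from 149 and 145 CPM to 106, 112 and 103 CPM (log2 fold change -0.46, SE 0.09, edgeR adjusted p = 0.00501). Nop10, the smallest protein of the particle, was at 287 and 234 CPM against 181, 234 and 276 CPM, with overlapping groups and no call (log2 fold change -0.17, SE 0.17, edgeR adjusted p = 0.557). In shallow libraries Gar1, Nhp2 and Nop10 had log2 fold changes of -0.27, -0.33 and 0.09, with overlap in each.

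All 3 box C/D proteins among the members fell in deep libraries, where 7.03% of all genes did. Snu13, kept in another list of snoRNP genes, was not called there (log2 fold change -0.58, SE 0.28, edgeR adjusted p = 0.177). Fibrillarin (Fbl), the methyltransferase of these particles, was at 92.3 and 83.5 CPM in control and 66.9, 59.2 and 53.5 CPM in scKO (log2 fold change -0.55, SE 0.12, edgeR adjusted p = 0.00663). Nop56 and Nop58 form the scaffold beside it. Nop58 was at 230 and 238 CPM against 172, 187 and 191 CPM (log2 fold change -0.35, SE 0.09, edgeR adjusted p = 0.0164), and Nop56 at 38.8 and 47.9 CPM against 28.1, 31.3 and 35.3 CPM (log2 fold change -0.47, SE 0.15, edgeR adjusted p = 0.0478). Both calls were lost without scKO 6 and without scKO 7, and that of Nop56 also with DESeq2.

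Nop58 had the smallest p of all members over both classes (log2 fold change -0.42, SE 0.12, unadjusted p = 0.00272, edgeR adjusted p = 0.127). Its shallow values were 54.3 to 124 CPM (median 97.9) in control and 57.4 to 79.2 CPM (median 65.0) in scKO. The overlap came from control 7, at 54.3 CPM; each of the other 6 shallow controls, 84.0 CPM or higher, was above every scKO library. Without control 7 Nop58 was called over both classes (log2 fold change -0.47, edgeR adjusted p = 0.0390). As control 7 held the lowest shallow control value, its removal widens the contrast and is not separate evidence. Shallow Nop56 values were 14.8 to 42.5 CPM (median 25.5) in control and 16.7 to 23.2 CPM (median 20.8) in scKO, from 9 to 36 counts. Nolc1, a chaperone that brings snoRNPs to the nucleolus, fell in deep libraries from 214 and 186 CPM to 144, 153 and 154 CPM (log2 fold change -0.41, SE 0.09, edgeR adjusted p = 0.0106).

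**Figure D2:**
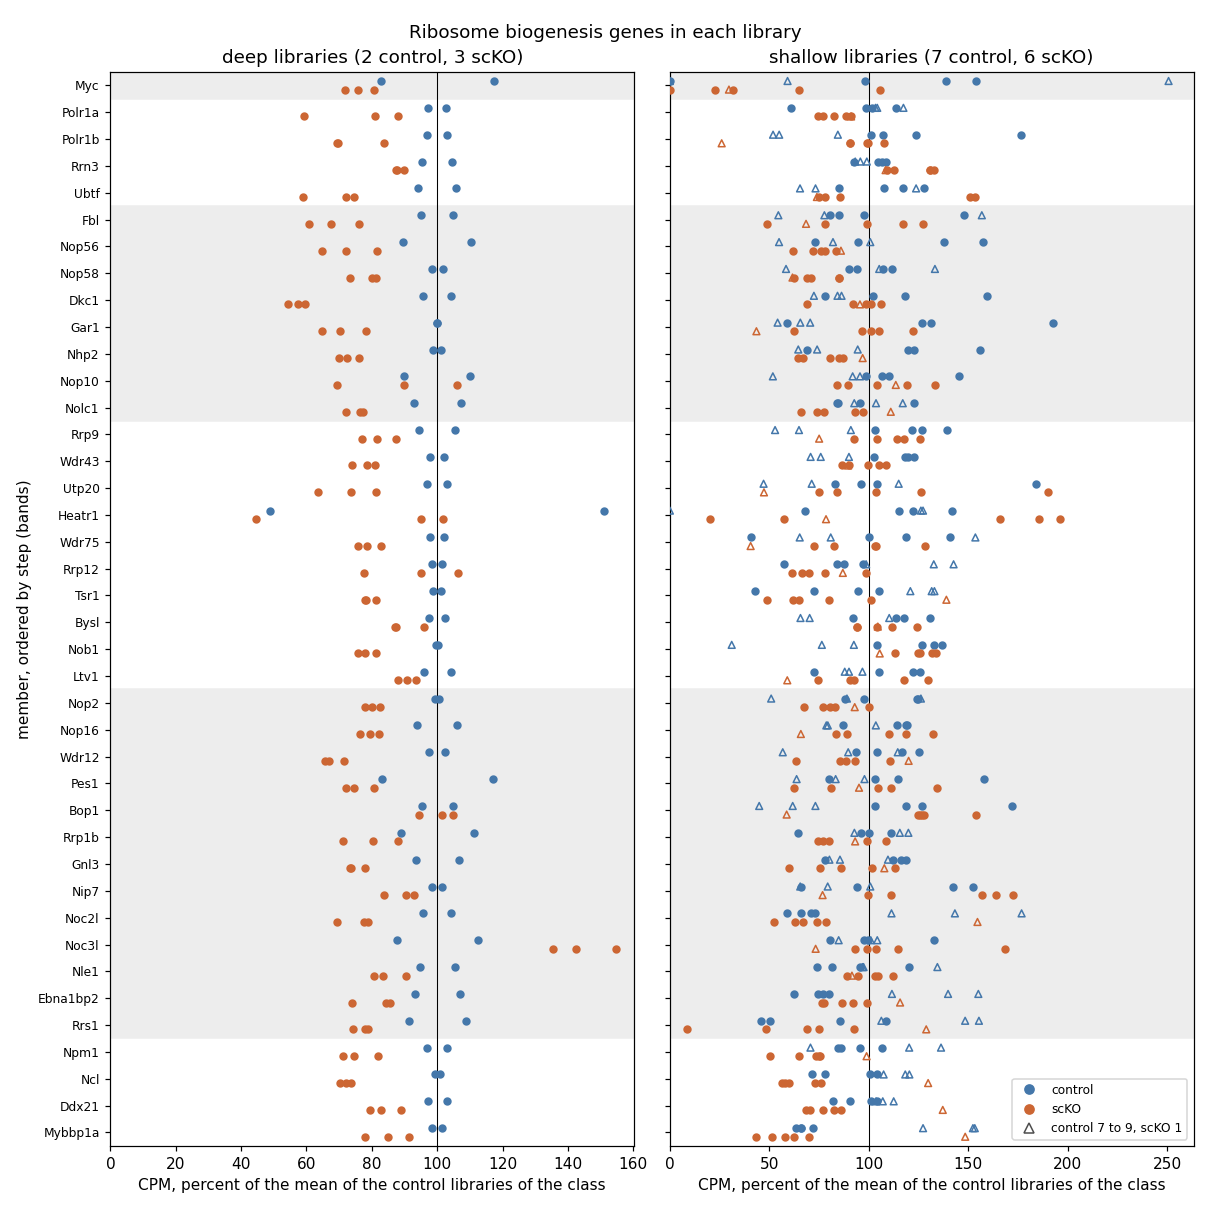
CPM of each of the 40 members in each library, as a percent of the mean of the control libraries of the same depth class (horizontal axis, line at 100), for deep (left) and shallow (right) libraries, with control in blue and scKO in orange, and open triangles for control 7 to 9 and scKO 1. On the left the orange points lie wholly below the blue ones in 35 members and wholly above in Noc3l; on the right the colours overlap in every row.

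Among factors of the small subunit, 4 of 10 fell in deep libraries (Wdr43, Nob1, Wdr75 and Tsr1), where 7.03% of all genes did. All 10 were negative, against 50.2% of all genes, and the median was -0.34. Wdr43 and Wdr75 belong to the early complex that links transcription of the precursor to its processing. Wdr43 was at 256 and 245 CPM in deep controls and 202, 185 and 197 CPM in deep scKO (log2 fold change -0.36, SE 0.09, edgeR adjusted p = 0.0141), and Wdr75 at 73.8 and 76.9 CPM against 57.1, 59.1 and 62.5 CPM (log2 fold change -0.34, SE 0.10, edgeR adjusted p = 0.0425). Heatr1 of the same complex had 14 to 64 counts per deep library and overlapping groups, and its log2 fold change of -0.38 had an SE of 0.48.

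Nob1 is the nuclease that makes the last cut of the small subunit RNA, and Tsr1 acts on the late precursor particle. Nob1 was at 75.5 and 74.9 CPM in deep controls and 58.5, 56.9 and 61.1 CPM in deep scKO (log2 fold change -0.35, SE 0.10, edgeR adjusted p = 0.0343). Tsr1 was at 70.9 and 72.6 CPM against 56.2, 55.9 and 58.3 CPM (log2 fold change -0.34, SE 0.10, edgeR adjusted p = 0.0426). The calls of Wdr75, Tsr1 and Nob1 were each lost when any deep library was left out and with DESeq2.

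The other 5, Rrp9, Utp20, Rrp12, Bysl and Ltv1, had deep log2 fold changes from -0.46 (Utp20) to -0.11 (Rrp12) and no call. In shallow libraries the 8 tested small subunit factors ranged from -0.32 (Rrp12) to 0.22 (Nob1) with a median of -0.07. Nob1 held 2 to 17 counts in shallow controls and 11 to 18 in shallow scKO, with overlapping groups and no call (SE 0.26, edgeR adjusted p = 0.894). Its shallow level was above the control mean in all 6 scKO libraries, the opposite direction to the deep class. Without the 4 libraries that lay apart its shallow log2 fold change was 0.0015.

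Large subunit factors had 6 of 13 members falling in deep libraries (Wdr12, Gnl3, Noc2l, Rrs1, Nop16 and Nop2), where 7.03% of all genes fell. The median was -0.33, with 11 of 13 negative, against 50.2% of all genes. Wdr12, Pes1 and Bop1 form one complex that is needed to mature the large subunit RNA, and the 3 transcripts did not share a pattern. Wdr12 fell from 65.6 and 68.7 CPM to 44.0, 44.9 and 48.0 CPM (log2 fold change -0.56, SE 0.11, edgeR adjusted p = 0.00491). Pes1 was at 150 and 107 CPM in control against 104, 95.7 and 92.5 CPM, where the spread between the controls was wide (log2 fold change -0.39, SE 0.13, edgeR adjusted p = 0.0684). Bop1 was at 311 and 282 CPM against 301, 280 and 311 CPM, with a log2 fold change of 0.01 (SE 0.10). A test of these differences between the partners was not made.

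The GTPase nucleostemin (Gnl3), abundant in stem and dividing cells, fell from 115 and 131 CPM to 95.9, 90.5 and 90.0 CPM (log2 fold change -0.42, SE 0.10, edgeR adjusted p = 0.0128). Nop2, an RNA methyltransferase, fell from 82.0 and 81.1 CPM to 67.2, 65.3 and 63.6 CPM (log2 fold change -0.32, SE 0.10, edgeR adjusted p = 0.0473). Rrs1, which brings in an early ribosomal RNA and protein complex, and Nop16 fell with log2 fold changes of -0.38 and -0.33 (edgeR adjusted p = 0.0476 and 0.0471). The calls of Nop2, Nop16 and Rrs1 lay close to the threshold and were lost with DESeq2, with limma-voom and without at least 4 of the 5 deep libraries taken one at a time.

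Noc2l and Noc3l both act on large subunit precursors and had opposite signs. Noc2l fell from 80.0 and 73.4 CPM to 60.5, 53.2 and 59.6 CPM (log2 fold change -0.41, SE 0.11, edgeR adjusted p = 0.0234). Noc3l was at 14.5 and 18.6 CPM in deep controls and 25.6, 22.4 and 23.5 CPM in deep scKO, above both controls each time, and just missed the threshold (log2 fold change 0.51, SE 0.17, edgeR adjusted p = 0.0582). With only control 1 as the deep control Noc3l was called higher. The value over both classes was 0.35 on the log2 scale (SE 0.16, edgeR adjusted p = 0.381), and its shallow counts of 5 to 15 were below the filter. Rrp1b, Ebna1bp2, Nle1 and Nip7 had deep log2 fold changes from -0.33 (Rrp1b) to -0.17 (Nip7) and no call. In shallow libraries the 12 tested large subunit factors ranged from -0.41 (Rrs1) to 0.37 (Nip7), with a median of -0.10.

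Of the abundant nucleolar proteins with several roles, nucleolin (Ncl) and nucleophosmin (Npm1) fell in deep libraries. Ncl, an RNA-binding protein of the precursor RNA, was at 361 and 355 CPM in deep controls and 258, 251 and 263 CPM in deep scKO, so each group was narrow and the gap was wide (log2 fold change -0.47, SE 0.09, edgeR adjusted p = 0.00431). Npm1, a chaperone that gives the nucleolus its outer layer, was at 425 and 399 CPM against 307, 293 and 338 CPM (log2 fold change -0.40, SE 0.10, edgeR adjusted p = 0.0204). Ddx21, an RNA helicase, and Mybbp1a, a binding partner of transcription factors, had deep log2 fold changes of -0.26 and -0.24 with edgeR adjusted p = 0.0839 and 0.109.

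None of the 4 was called in shallow libraries, where the log2 fold changes were -0.45 (Npm1), -0.45 (Mybbp1a), -0.40 (Ncl) and -0.20 (Ddx21). Shallow Npm1 was at 163 to 314 CPM (median 221) in control and 116 to 228 CPM (median 171) in scKO. Shallow Ncl was at 177 to 299 CPM (median 258) in control and 140 to 322 CPM (median 165) in scKO. In both genes scKO 1 was the highest scKO library, and for Ncl it lay above every control. Without scKO 1 Ncl and Npm1 were called over both classes, with log2 fold changes of -0.57 and -0.49 (edgeR adjusted p = 0.0117 and 0.0335). With it they were -0.41 and -0.42 (edgeR adjusted p = 0.228 and 0.145). As scKO 1 held the highest shallow scKO value of each, its removal widens the contrast and is not separate evidence. Npm1 has 8 pseudogenes in GENCODE that share 20 or more stretches of 50 bases with it; they held 276 counts against 11187 at Npm1, and how reads were divided among them is not stated, so its count is less certain.

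The 6 members that stayed called in deep libraries under all 11 alternatives were Dkc1, Fbl, Gar1, Nhp2, Wdr12 and Ncl, 4 of them snoRNP proteins. Reads of Dkc1, Nhp2 and Wdr12 cannot be told from those of the genes that overlap them on the other strand (Mpp1, Rmnd5b and Carf), since no source used here says whether counting used strand. The same holds for Nop56, Tsr1, Wdr43, Gnl3 and Noc2l among the other members that fell.

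The 4 libraries that lay apart also differed from the other shallow ones in single members, at shares near those of all genes. Between controls 7 to 9 and controls 3 to 6, 6 members were higher in all 3 of the former (Rrp12, Tsr1, Noc2l, Ebna1bp2, Ncl and Mybbp1a; 17.3% of genes) and 6 were lower in all 3 (Polr1b, Nop10, Rrp9, Wdr43, Nob1 and Bop1; 14.1% of genes). scKO 1 lay above the other 5 shallow scKO libraries in 13 of the 40 members (28.7% of genes) and below them in 14 (27.6% of genes), among them 5 of the first 6 above and 4 of the second 6 below. Mybbp1a was at 128 to 144 CPM in controls 3 to 6, 255 to 307 CPM in controls 7 to 9, 298 CPM in scKO 1 and 86.4 to 140 CPM in the other shallow scKO libraries. Bop1 went the other way, at 214 to 356 CPM in controls 3 to 6, 93.0 to 151 CPM in controls 7 to 9, 122 CPM in scKO 1 and 259 to 318 CPM in the rest. In both genes the high and the low level separated these 4 libraries from the other 9 shallow ones, in control and scKO alike.

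**Figure D3:**
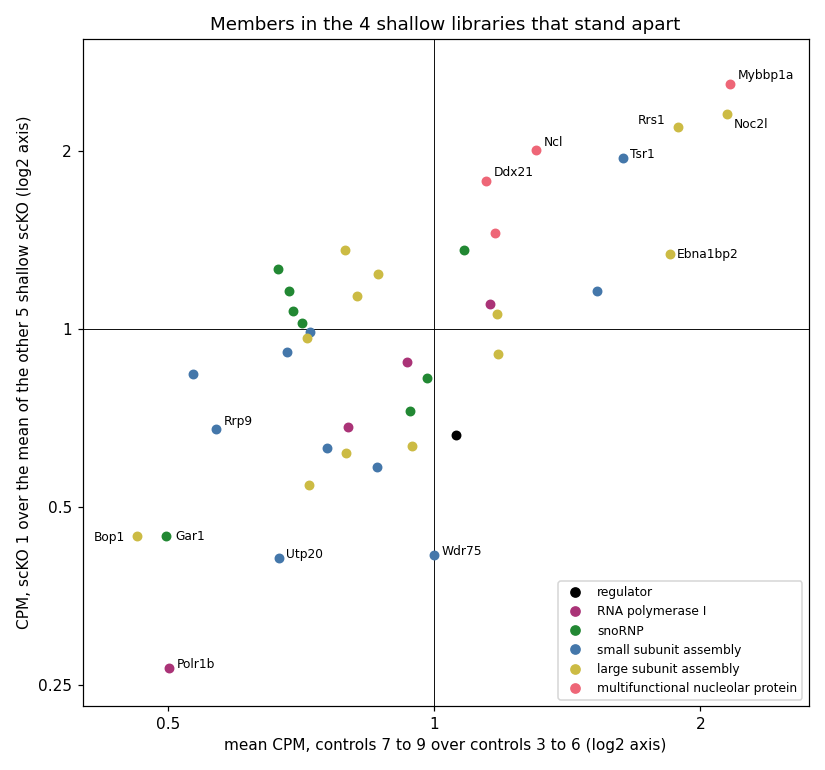
Each point is 1 of the 40 members in shallow libraries: the horizontal axis is the mean CPM of controls 7 to 9 over that of controls 3 to 6, the vertical axis the CPM of scKO 1 over the mean of the other 5 shallow scKO libraries, both on log2 axes, with colours for the step. Mybbp1a and Noc2l lie at the upper right, with ratios of 2.16 and 2.60 and of 2.14 and 2.31, and Bop1 at the lower left with 0.461 and 0.446.

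Without these 4 libraries, 4 shallow controls faced 5 shallow scKO libraries. All 5 scKO values of Nop58 and of Npm1 were then below all 4 controls (1.2% of genes), those of Rrn3 were above them (1.43% of genes), and 37 members overlapped. edgeR called 0 of 36 members in this comparison (0 of 7077 genes), 30 were negative against 52.3% of all genes, and the median was -0.19. Single log2 fold changes moved in both directions. Nop56 went from -0.43 to -0.68, Nhp2 from -0.33 to -0.61, Dkc1 from -0.11 to -0.30, Gar1 from -0.27 to -0.43 and Nop10 from 0.09 to -0.12. Closer to 0 were Mybbp1a, from -0.45 to -0.24, Noc2l, from -0.25 to -0.0053, Rrs1, from -0.41 to -0.26, Rrp12, from -0.32 to -0.13, Nob1, from 0.22 to 0.0015, and Bop1, from 0.24 to 0.01. Nop58, Npm1, Ncl and Rrn3 were at -0.46, -0.47, -0.47 and 0.25. The interaction of contrast and depth class was then negative in 27 of 38 members against 48.7% of all genes, with a median of -0.12 and 0 members called.

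As a list, the level of the members can be read in each library as the mean log2 CPM relative to the control mean of the class. It was -0.32 ± 0.04 (SD, n = 3) in deep scKO and -0.12 ± 0.08 (SD, n = 6) in shallow scKO, where 0 is the control mean. The spread of the controls was 0.01 (SD, n = 2) and 0.08 (SD, n = 7). All 3 deep scKO libraries lay below both deep controls. In the shallow class scKO 3 and 4, at -0.02 and -0.03, lay within the range of the controls, -0.09 to 0.11, scKO 1 lay at its lower edge, and scKO 2, 5 and 8 lay below it, at -0.14, -0.20 and -0.22. By step, the deep scKO mean was lowest for snoRNP proteins, at -0.46 ± 0.06 (SD, n = 3), and was -0.25 ± 0.02 (SD, n = 3) for large subunit factors. In shallow scKO the nucleolar proteins had the lowest mean and the widest spread, -0.40 ± 0.40 (SD, n = 6), with scKO 1 at 0.38.

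**Figure D4:**
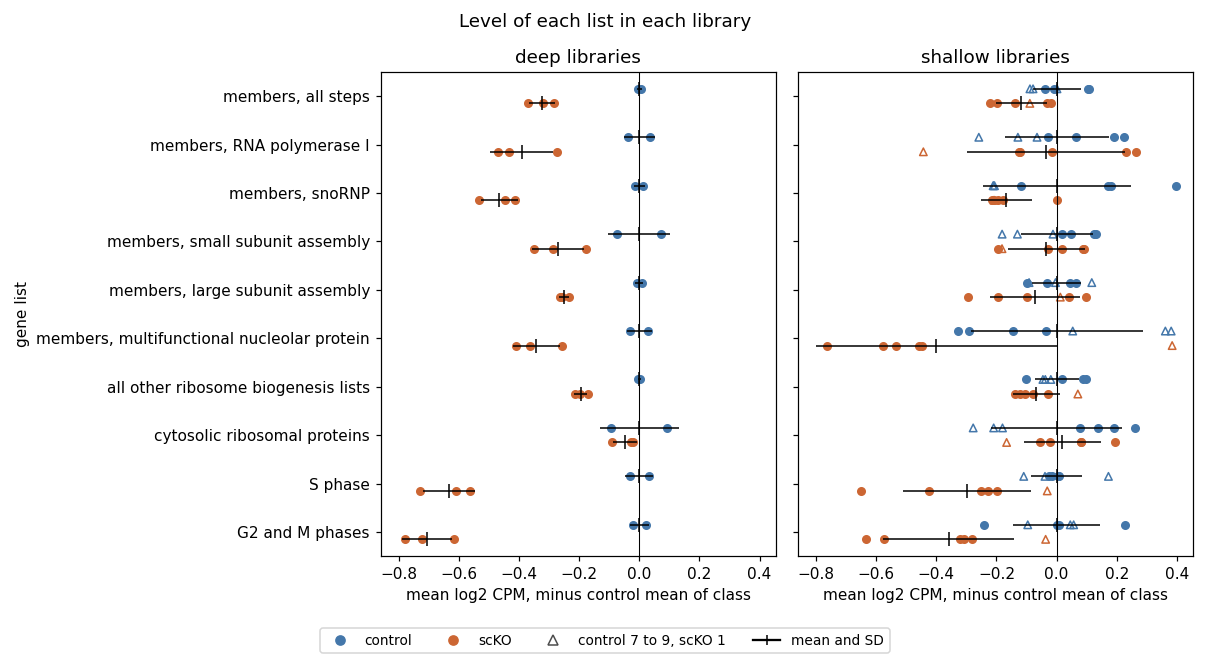
Mean log2 CPM of each gene list in each library, minus the mean of the control libraries of its depth class (horizontal axis), for deep (left) and shallow (right) libraries, with control in blue, scKO in orange, triangles for control 7 to 9 and scKO 1, and black ticks and bars for the mean and SD of a group. In deep libraries the scKO points of the members lie left of both controls, those of S phase and of G2 and M lie further left, and those of cytosolic ribosomal proteins lie near 0; in shallow libraries the scKO points of the members overlap those of the controls.

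The rest of the ribosome pathway was read from lists that are not members. Of 136 tested genes in 5 further lists of ribosome biogenesis, 117 (86.0%) were negative in deep libraries, against 50.2% of all genes. Their median was -0.19. Of the 136, 19 fell and 1 rose, where 7.03% of all genes fell and 7.31% rose. Those that fell were 1 of 13 RNA polymerase I genes (Tcof1, treacle, -0.44) and 1 of 9 genes of snoRNPs and their assembly (Ruvbl2, -0.40). They also included 8 of 46 small subunit genes, 5 of 53 large subunit genes and 4 of 15 exonuclease genes. Beside the 7.03% of all genes that fell, and the 9.25% of well counted ones, the shares of RNA polymerase I, snoRNP assembly and large subunit genes are near the background. Lyar (-0.53) had the smallest p among the small subunit genes that fell, Mak16 (-0.36) and Npm3 (-0.36) among the large subunit genes, and Exosc8 (-0.65), a subunit of the RNA exosome, among the exonucleases. Riok3, a kinase of late small subunit assembly, rose (log2 fold change 0.60, SE 0.10, edgeR adjusted p = 0.00226). Over both classes 0 of 114 of these genes were called, where 0.352% of all genes fell and 0.326% rose. Of the 114, 88 were negative, against 51.6% of all genes, and the median was -0.12.

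The ribosomal proteins themselves, which the members help to assemble onto ribosomal RNA, lay near the control level. In deep libraries edgeR called 0 of 77 cytosolic ribosomal protein genes (3 at an unadjusted p under 0.05, all lower), where 7.03% of all genes fell. Of the 77, 53 (68.8%) were negative, against 50.2% of all genes tested, and the median was -0.07. Over both classes 36 of 69 were negative, against 51.6% of all genes, with a median of -0.01. Their level in deep scKO was -0.05 ± 0.04 (SD, n = 3) against a control SD of 0.13 (n = 2). Ribosomal protein genes have many processed copies, so their counts are uncertain. Counts also end at a common maximum that every deep library reaches. Fits on counts corrected for UMI collisions covered these genes too, but their values are not given here. The part of that maximum in the values above was not worked out.

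Cell cycle genes moved with the members in the same libraries. In deep libraries 29 of 34 S phase genes and 28 of 30 genes of G2 and M fell, where 7.03% of all genes did. Their medians were -0.65 and -0.69, larger than the -0.36 of the members. Over both classes 3 of 29 and 4 of 26 fell, where 0.352% of all genes did. The first were Tyms (-0.89) and Tk1 (-0.67), which make thymidylate, and Mcm5 (-0.63) of the replication helicase. The second were Kif11 (-0.95), Kif4 (-0.64), Cenpe (-0.75) and Cdc20 (-0.62), which act in mitosis. Levels of the G2 and M list were -0.71 ± 0.08 (SD, n = 3) in deep scKO and -0.36 ± 0.22 (SD, n = 6) in shallow scKO, so the deep value lay further below 0, as it did for the members. The part of cell cycle genes in the level of the members was not tested. In bulk RNA, fewer cells of a kind and less RNA per cell cannot be told apart.

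Markers of other cells give the following values beside these results. Summed Schwann cell markers (5 genes) were at 38.3 to 57.9 CPM in deep controls and 85.2 to 139 CPM in deep scKO, but at 72.2 to 356 CPM in shallow controls and 37.2 to 168 CPM in shallow scKO, the opposite direction. Fibro-adipogenic markers (7 genes) ran from 34.1 to 123 CPM and endothelial markers (6 genes) from 5.86 to 57.4 CPM over all libraries, with overlapping groups in both classes. Leukocyte markers (6 genes) were at 4.82 to 9.93 CPM in deep controls and 7.57 to 19.0 CPM in deep scKO. In shallow libraries they were at 2.21 to 13.2 CPM in control and 1.04 to 14.6 CPM in scKO. Of these markers, Ptprc and Adgre1 were at 0 in both deep controls. Tendon markers (4 genes) were at 337 to 400 CPM in deep controls and 389 to 428 CPM in deep scKO, and at 126 to 445 CPM in shallow controls and 165 to 481 CPM in shallow scKO. Smooth muscle and pericyte markers were at 1027 to 1280 CPM in deep controls and 1010 to 1095 CPM in deep scKO, and at 2825 to 3234 CPM in shallow controls and 2613 to 3651 CPM in shallow scKO. The part of these cells in the results was not tested.

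Shares also differed between the depth classes themselves. In controls, the share of a member in deep libraries over that in shallow ones had a median of 1.73 (0.609 for Rrn3 to 7.18 for Myc), while that of all 7662 genes had a median of 1.46, with 0.533 to 3.85 at the 5th and 95th percentiles. In 22 members both deep controls lay above every shallow control, against 46.0% of genes. Levels of a member are therefore compared only within a class.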

How the data were processed

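The 40 genes, their steps and the other lists were chosen with earlier results of these data known. The deposited table holds raw UMI counts for each gene and library, as its name says. HISAT2, HTSeq and the rat build Rnor_6.0 are named in the submitters' processing notes, while the identifiers are mouse Ensembl genes and were used as deposited; the library kit, annotation release, UMI length and use of strand are not given in the sources used here. Symbols and positions came from GENCODE M21 (GRCm38), with 227 features unmatched (0.0309% of counts), and promoters from RefSeq (GRCm38.p6). Counts end at a common maximum, reached in all 5 deep libraries and in scKO 3.

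Genes were filtered with filterByExpr on the group, scaled by TMM and compared with the quasi-likelihood test (robust) of edgeR 4.0.16 in R 4.3.3, over both depth classes and within each, with Benjamini-Hochberg adjustment over all genes tested and a threshold of 0.05. Of the members, 37 passed the filter over both classes (all but Myc, Utp20 and Heatr1), 36 in shallow libraries (Noc3l also left out) and 40 in deep ones. DESeq2 1.42.0, limma-voom (limma 3.58.1), other scaling and filters, counts corrected for UMI collisions, and leaving out libraries were alternatives. Models without the depth class and with the replicate number as a block were run over both classes. The interaction without the 4 libraries apart and a model with 3 classes of libraries were chosen after seeing the data. The 4 libraries apart were themselves picked on a principal component of these data. The edgeR fits were also run on simulated counts, with the same spread for all genes and changes larger than those of the members. How well changes of the size seen in the members are detected was not tested.

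Values in every library, or by range, are given for members called in any fit, for up to 3 of each step with the smallest p over both classes, and for Myc, Npm1 and Ncl. Of the other lists, named genes are those called over both classes and up to 2 with the smallest p in deep libraries. Snu13, Noc3l, Bop1, Pes1, Nop10, Mybbp1a and Heatr1 were also named after their values were seen.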

Additional observations from a re-analysis of the deposited data

Results flagged for a closer look

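In 7 of the 80 sets of shallow values examined (each member in each group), 1 library stood far from the others of its group. Chance gives about 1 in 20 for independent sets, but these sets share the same libraries. All but that of Polr1a lay in scKO 1, which is among the 4 libraries that lay apart. In scKO 1, Polr1b was at 5.46 CPM (4 counts) where the other 5 shallow scKO libraries were at 19.0 to 22.6 CPM, and Bop1 at 122 CPM where they were at 259 to 318 CPM. In the same library Noc2l was at 148 CPM (others 50.1 to 74.7 CPM), Ncl at 322 CPM (140 to 188 CPM), Ddx21 at 302 CPM (151 to 189 CPM) and Mybbp1a at 298 CPM (86.4 to 140 CPM). Polr1a was at 46.5 CPM (31 counts) in control 6, with the other 6 shallow controls at 75.5 to 89.8 CPM. The cause was not tested.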

How the results depend on the processing

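The median log2 fold change of the members stayed negative under every alternative run, in each class and over both. Over both classes edgeR called 0 members; DESeq2 called 5, the model with 3 classes 2, the model without the 4 libraries apart 8, and leaving out 1 library 0 to 2. In deep libraries the count of 21 became 12 with DESeq2 and 8 to 18 with 1 library left out, 18 including Noc3l as higher. All genes called over both classes numbered 52 and ranged from 1 without a depth term to 617 without the 4 libraries apart (359 with no count filter, 22 with a stricter one, 390 with DESeq2, 101 with limma-voom, 300 with 3 classes, 11 to 216 with 1 library left out). In shallow libraries they numbered 3, with 13, 6, 0 and 0 to 5 under no filter, DESeq2, no libraries apart and 1 library left out; in deep libraries they numbered 1884, and 996 without scKO 7. The cause of these shifts was not tested.

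With the replicate number as a block over both classes 0 members were called, their median was -0.22 and 14 genes were called in all. Deviations of same-numbered libraries correlated at -0.0658 to 0.249, not above 0.1 in every pair, and 2 of 9 controls correlated best with their own number, so the numbers were not taken as pairs. The block turned Nob1 to 0.059 and Bysl to 0.020.

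Values near 0 changed sign. Over both classes Nob1 was 0.088 with no depth term, and Nop10 was -0.033 with 3 classes and -0.14 without the 4 libraries apart. In shallow libraries Nop16 became 0.0033 (size factors), 0.025 (no filter) and 0.0023 (DESeq2), Nle1 0.022 (no filter) and 0.0091 (limma-voom), and Ubtf -0.031 (limma-voom). Without the 4 libraries apart, shallow Nle1 was 0.10, Ubtf -0.0012, Bysl -0.12, Nop10 -0.12, Ebna1bp2 0.22 and Rrp9 -0.16. With 1 library left out, Bysl ranged from -0.059 to 0.042 and Nop10 from -0.061 to 0.081 over both classes. Shallow ranges were -0.15 to 0.12 (Pes1), -0.070 to 0.078 (Nle1), -0.10 to 0.10 (Nop16), -0.12 to 0.0064 (Wdr43), -0.14 to 0.10 (Ubtf), -0.17 to 0.060 (Dkc1), -0.059 to 0.15 (Rrp9), -0.023 to 0.14 (Bysl), -0.017 to 0.21 (Nop10), -0.16 to 0.039 (Ebna1bp2) and -0.21 to 0.020 (Ltv1). Deep ranges were -0.067 to 0.069 (Bop1), -0.91 to 0.71 (Heatr1) and -0.21 to 0.013 (Rrp12). Where 1 deep control was left out, the lone control was assumed to vary like the scKO libraries.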
